A study of Mus musculus with 12 samples.

Results

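Prdm1, Bcl6 and 5 genes that act around them (Pou2af1, Irf4, Batf, Id2 and Id3) were followed across sorted CD4+ T cells that were labelled Blimp1-sufficient or Blimp1-deficient. The 7 genes were chosen by name, with earlier results of these data known. Each is represented by its probe with the highest mean over 12 arrays, as the platform annotation assigns probes to genes. They are 7 of 17759 genes with a probe, and all 7 are among the 12119 genes that passed the filter on low signal and were tested. They had 9 probes in all, 2 each for Prdm1 and Id2 and a single probe for each other gene.

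Blimp1, the product of Prdm1, and Bcl6 are zinc finger repressors that hold down each other's genes, and the balance between them sets the choice between terminal effector and follicular or memory fates in both B and T cells. Irf4 and Batf form complexes on composite DNA elements in activated T cells and are needed for Blimp1 expression in effector regulatory T cells. Id2 and Id3 bind E proteins and keep them from DNA, and Pou2af1 (also called OCA-B or Bob1) is a coactivator of the octamer factors Oct1 and Oct2 that is best known from B cells.

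The series holds 12 Illumina mouse arrays in 4 groups of 3, numbered 1 to 3 in each group. All cells were of strain C57BL/6, from donors aged 8 to 12 weeks that carried a green fluorescent Foxp3 reporter. Naive CD4+ CD44low cells of both genotypes, told apart by an allotype marker, were mixed in equal parts and given to RAG1-/- mice, which lack mature T and B cells, and were sorted 6 to 8 weeks later. Ctrl pTreg and CKO pTreg are the Foxp3-positive progeny of Blimp1-sufficient and Blimp1-deficient cells, and Ctrl Teff and CKO Teff the Foxp3-negative progeny. Cells from spleen, mesenteric lymph nodes and colonic lamina propria were combined, and all 4 groups were stimulated for 4 h with PMA and ionomycin. The sources used here do not give how Blimp1 was deleted, or by which Cre. Since Teff cells also came through the same hosts and the same stimulation, no group shows unstimulated cells. These are bulk RNA samples, in which fewer cells of a type and less RNA per cell cannot be told apart.

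The sorted populations carried T cell markers and differed in Foxp3 as labelled. Cd4 was the dimmest of the tested T cell genes, with group means of 5.44 to 5.97, whereas Cd8b1 averaged 9.22 to 9.69. The CD4 label was not checked beyond these levels. On every array 8 of 8 tested T cell genes lay above the array median, and Foxp3, the lineage factor of regulatory T cells, averaged 8.02 and 8.05 log2 units in Ctrl and CKO pTreg against 4.58 and 4.64 in Ctrl and CKO Teff. Array medians ran from 4.66 to 4.68 and correlations between arrays from 0.943 to 0.988, and no pair of arrays held identical values. The mean of 11 neutrophil genes ranged from 6.05 to 10.20 over the arrays. Its correlation with the 7 genes over the 12 arrays lay between -0.28 (Id3) and 0.28 (Irf4), and its part in the results was not tested.

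Start regions are shown for Prdm1, Bcl6 and Pou2af1, the 3 members whose signal differed most between Ctrl and CKO pTreg, with letters that factors of the circuit are known to bind. Each is the 250 bases before a transcription start in RefSeq on GRCm38.p6, 5′ to 3′ on the gene's strand. RefSeq start regions were matched for 7 of 7 genes, 8 windows of 32851, and Bcl6 has 2 of them. Capitals mark matches to GNGAAAG (the core of Blimp1 sites), TTCNNNGAA (a spacing that Bcl6 and STAT sites share), GAAANNGAA (IRF sites), TGANTCA (AP-1 sites) or ATGCAAAT (the octamer), searched on both strands.

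Prdm1, chr10:44458749-44458998, minus strand: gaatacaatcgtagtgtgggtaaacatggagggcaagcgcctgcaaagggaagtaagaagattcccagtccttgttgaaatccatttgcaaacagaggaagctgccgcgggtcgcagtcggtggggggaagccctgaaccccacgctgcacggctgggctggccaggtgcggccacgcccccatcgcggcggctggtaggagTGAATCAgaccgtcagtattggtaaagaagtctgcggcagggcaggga
Bcl6, upstream start, chr16:23988853-23989102, minus strand: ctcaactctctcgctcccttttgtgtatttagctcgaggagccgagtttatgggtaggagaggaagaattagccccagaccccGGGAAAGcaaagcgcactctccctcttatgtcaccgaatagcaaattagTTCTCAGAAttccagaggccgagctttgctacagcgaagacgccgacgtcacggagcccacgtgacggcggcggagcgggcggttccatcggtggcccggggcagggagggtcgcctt
Bcl6, internal start, chr16:23981284-23981533, minus strand: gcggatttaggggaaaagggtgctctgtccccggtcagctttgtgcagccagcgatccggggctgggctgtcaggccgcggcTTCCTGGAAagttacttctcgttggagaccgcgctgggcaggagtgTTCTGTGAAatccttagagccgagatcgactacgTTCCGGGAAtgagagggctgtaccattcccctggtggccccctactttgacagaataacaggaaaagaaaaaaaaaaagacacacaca
Pou2af1, chr9:51213440-51213689, plus strand: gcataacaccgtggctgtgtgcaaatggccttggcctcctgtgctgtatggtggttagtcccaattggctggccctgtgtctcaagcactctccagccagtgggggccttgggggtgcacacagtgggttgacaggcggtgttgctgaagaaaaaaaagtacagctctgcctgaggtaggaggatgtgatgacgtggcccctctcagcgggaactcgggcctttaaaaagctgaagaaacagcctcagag

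The window of the internal Bcl6 start held 3 matches to TTCNNNGAA, from bases -168 to -160, -122 to -114 and -88 to -80 before the start. The upstream Bcl6 window held 1 more, at -118 to -110, and 1 match to GNGAAAG at -167 to -161. The Prdm1 window held 1 match to TGANTCA at -48 to -42, and the Pou2af1 window held none of the 5 motifs. Among the 32851 start windows, 19.4% hold GNGAAAG, 7.02% TTCNNNGAA, 7.13% GAAANNGAA, 6.75% TGANTCA and 1.6% the octamer. The Irf4 and Batf windows each held 1 match to GNGAAAG, and those of Id2 and Id3 none of the 5 motifs. The letters CANNTG, the E-box that E proteins bind, occur in 66.2% of windows and were not put in capitals. The Prdm1 and internal Bcl6 windows lie within the annotated span of their genes. A match describes letters, and no binding was measured in these samples.

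Prdm1, which encodes the protein that the CKO cells are labelled as lacking, had more signal in CKO arrays than in Ctrl arrays, not less. In pTreg its log2 signal was 5.19, 6.07 and 6.03 on Ctrl arrays 1, 2 and 3, and 9.16, 8.47 and 9.48 on CKO arrays. In Teff it was 4.64, 5.39 and 4.73 on Ctrl arrays and 7.83, 8.9995 and 7.94 on CKO arrays. The genotypes did not overlap in either population, with a gap of 2.39 in pTreg and 2.45 in Teff between the highest Ctrl and the lowest CKO array. The CKO minus Ctrl difference was 3.27 ± 0.38 in pTreg (log2 ± SE, limma, adjusted p = 0.00953), 3.34 ± 0.38 in Teff (adjusted p = 0.0235) and 3.31 ± 0.27 averaged over both (adjusted p = 0.00185). Averaged over both, Prdm1 ranked 1 by p among the 12119 genes, and this call held in 33 of 33 alternatives. These values are from probe ILMN_2597923, and the sources used here do not place that probe inside or outside the deleted part, so the signal checks neither the deletion nor the labels. Directions below are those of the arrays as labelled.

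The excess of Prdm1 signal was close in the 2 populations. Same-numbered CKO arrays exceeded Ctrl arrays by 3.98, 2.39 and 3.45 in pTreg and by 3.20, 3.61 and 3.21 in Teff. The interaction, that is the pTreg difference minus the Teff difference, was -0.07 ± 0.54, with a 95% interval from -1.27 to 1.13. Mean Prdm1 signal was 0.85 ± 0.38 higher in pTreg than in Teff for Ctrl (limma, adjusted p = 0.479) and 0.78 ± 0.38 higher for CKO (limma, adjusted p = 0.520), and the arrays of the 2 populations overlapped in both genotypes. The order of the groups was therefore CKO pTreg, CKO Teff, Ctrl pTreg and Ctrl Teff, with the only gap between neighbours in the middle. The second Prdm1 probe, ILMN_2744650, stayed between 4.27 and 4.56, was above the array median on 0 arrays, and differed by 0.02 ± 0.09 between the genotypes in pTreg and by 0.01 ± 0.09 in Teff. The mean of the 8 tested T cell markers was 9.45 to 9.86 on the CKO arrays and 9.81 to 10.35 on the Ctrl arrays, lower in CKO in 5 of 6 same-numbered pairs, and its correlation with Prdm1 was -0.74. In pTreg, Cd28 and Cd247 of the 8 had higher means in CKO. The part of these markers in the Prdm1 signal was not tested.

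In the fits without a single array, the pTreg call of Prdm1 was lost in 1 of 12, without CKO pTreg 1 (limma, adjusted p = 0.0870). The call in Teff did not survive 10 of the 12, that is the removal of any single array other than CKO Teff 3 and CKO pTreg 2, with limma adjusted p from 0.0522 to 0.169. The difference itself stayed between 2.97 and 3.58 in Teff. Without a same-numbered pair of arrays neither call was stable. The pTreg call was lost in 4 of 6 such fits, those without any pTreg pair or Teff pair 1 (limma, adjusted p from 0.0503 to 0.259), and the Teff call in 5 of 6 (limma, adjusted p from 0.0875 to 0.525). With the replicate number as a block, Prdm1 passed in pTreg (limma, adjusted p = 0.00104) and in Teff (limma, adjusted p = 0.00307), and both calls held in 6 of 6 blocked fits without a pair.

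**Figure D1:**
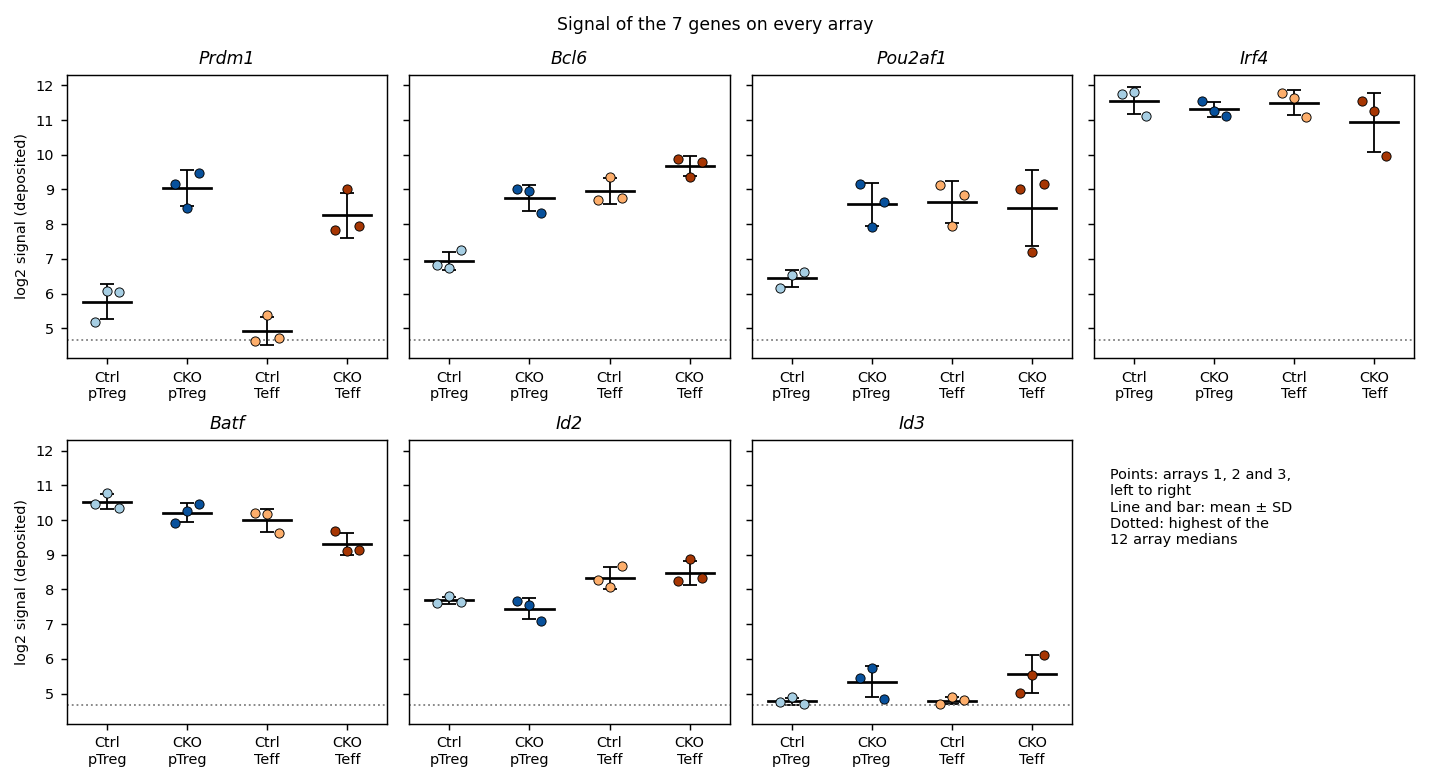
Log2 signal (vertical axis) of the 7 genes on each of the 12 arrays, by group (horizontal axis). Points are arrays, lines and bars the mean ± SD of 3 arrays, and the dotted line the highest of the array medians, 4.68. Prdm1 separates CKO from Ctrl in both populations, Bcl6 and Pou2af1 are low in Ctrl pTreg alone, and Id3 lies near the dotted line.

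Bcl6, the repressor that directs follicular helper T cells, was low in Ctrl pTreg and higher in each other group. Its log2 signal was 6.83, 6.75 and 7.24 in Ctrl pTreg and 9.002, 8.95 and 8.32 in CKO pTreg. It was 8.70, 9.37 and 8.76 in Ctrl Teff and 9.88, 9.35 and 9.80 in CKO Teff. The 3 Ctrl pTreg arrays lay below all 9 others, and the lowest CKO pTreg array exceeded the highest Ctrl pTreg array by 1.08. In pTreg the CKO minus Ctrl difference was 1.82 ± 0.25 (limma, adjusted p = 0.0222). It passed with the replicate block too (limma, adjusted p = 0.0165). In Teff it was 0.73 ± 0.25, with a 95% interval from 0.18 to 1.28, and did not pass, and the pair numbered 2 differed by only -0.03 there. Averaged over both populations Bcl6 rose by 1.27 ± 0.18 in CKO (limma, adjusted p = 0.0239).

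Within Ctrl, Bcl6 was lower in pTreg than in Teff, with a difference of -2.00 ± 0.25 (limma, adjusted p = 0.00530) that was kept in 12 of 12 fits without a single array. Without both pTreg arrays numbered 1 its limma adjusted p was 0.0532. Within CKO the difference was -0.92 ± 0.25 (limma, adjusted p = 0.166), although the lowest Teff array still exceeded the highest pTreg array by 0.34. The interaction was 1.08 ± 0.35, with a 95% interval from 0.30 to 1.86, but it did not pass over all genes, without the block or with it (limma, adjusted p = 0.325 with the block). A larger genotype difference in pTreg than in Teff is thus not established for Bcl6 by that test. The comparisons of CKO with Ctrl pTreg and of pTreg with Teff in Ctrl share the Ctrl pTreg arrays.

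The Bcl6 call in pTreg depended on the pTreg arrays 1 and 2 among single arrays. It was lost without Ctrl pTreg 1 (limma, adjusted p = 0.144), CKO pTreg 1 (0.160), Ctrl pTreg 2 (0.128) or CKO pTreg 2 (0.148), while the difference stayed between 1.69 and 2.03. Among the fits without a pair it was lost in 3 of 6, those without pTreg pair 1 or 2 or Teff pair 1 (limma, adjusted p from 0.0763 to 0.610). The average over both populations was lost in 7 of the 12 fits without a single array, those without number 1 of any group, Ctrl pTreg 2, CKO pTreg 2 or Ctrl Teff 3, with limma adjusted p from 0.0690 to 0.110.

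Pou2af1, the octamer coactivator, had a pattern close to that of Bcl6 in pTreg and a different one in Teff. Its log2 signal was 6.16, 6.54 and 6.61 in Ctrl pTreg and 9.15, 7.93 and 8.63 in CKO pTreg. In Teff it was 9.12, 7.94 and 8.85 for Ctrl and 9.02, 7.19 and 9.16 for CKO. Again the 3 Ctrl pTreg arrays were the lowest of the 12, whereas the other 3 groups overlapped, with means of 8.57 ± 0.61, 8.64 ± 0.62 and 8.46 ± 1.10 (SD, n = 3) in CKO pTreg, Ctrl Teff and CKO Teff. Both Teff groups had their lowest value on the array numbered 2.

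In pTreg the Pou2af1 difference between genotypes was 2.13 ± 0.51 and did not pass (limma, adjusted p = 0.280). With the replicate number as a block it passed (limma, adjusted p = 0.0115), and same-numbered arrays differed by 2.99, 1.38 and 2.02. The blocked call was lost in 2 of 6 fits without a pair, those without pTreg pair 1 or 3 (highest limma adjusted p = 0.0777). With the number as a random block it passed as well. Without the block it also passed when both Teff arrays numbered 2 were left out (limma, adjusted p = 0.0271). In Teff the difference was -0.18 ± 0.51, with a 95% interval from -1.31 to 0.96, and its sign turned to 0.46 without CKO Teff 2. The average over both was 0.98 ± 0.36 (limma, adjusted p = 0.712, and 0.0499 with the block). Within Ctrl, pTreg lay below Teff by a difference of -2.20 ± 0.51 (limma, adjusted p = 0.0914), with no overlap, and without CKO Teff 2 alone the limma adjusted p of that difference was 0.0195. The interaction was 2.31 ± 0.73, with a 95% interval from 0.70 to 3.92, and did not pass over all genes (limma, adjusted p = 0.113 with the block).

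Pou2af1 is also a gene of B cells and plasma cells, so their markers were read beside it. Of 14 B and plasma cell markers 4 were tested (Cd79b, Blk, Jchain and Ebf1), and 5 of the other 10 had a probe that stayed below the filter. The mean of the 4 lay between 4.54 and 4.82 on every array, about the array median, and the highest single value was 5.04 (Jchain). The Pou2af1 signal of 7.19 to 9.16 outside Ctrl pTreg therefore stood on arrays where these 4 defining markers were near the median, and the correlation of Pou2af1 with their mean was -0.11 over the 12 arrays.

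Irf4 and Batf, the pair that binds composite elements in activated T cells, were bright in every group. Irf4 signal averaged 11.55 ± 0.38 (SD, n = 3) in Ctrl pTreg, 11.31 ± 0.22 in CKO pTreg, 11.50 ± 0.37 in Ctrl Teff and 10.93 ± 0.84 in CKO Teff, and its mean was at percentile 97.8 of the genes tested. All neighbours in that order overlapped. The wide spread of CKO Teff came from array 3 at 9.98, against 11.55 and 11.27 on arrays 1 and 2. The genotype difference was -0.25 ± 0.37 in pTreg and -0.57 ± 0.37 in Teff (95% interval -1.40 to 0.26), and no Irf4 comparison passed with or without the block.

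Batf had its highest mean in Ctrl pTreg, then CKO pTreg, Ctrl Teff and CKO Teff, and neighbours in that order overlapped. Its log2 signal was 10.46, 10.78 and 10.35 in Ctrl pTreg and 9.91, 10.25 and 10.46 in CKO pTreg. It was 10.20, 10.18 and 9.62 in Ctrl Teff and 9.68, 9.11 and 9.14 in CKO Teff. In each genotype the lowest pTreg array exceeded the highest Teff array, by 0.15 in Ctrl and 0.24 in CKO. The pTreg minus Teff differences were 0.53 ± 0.22 in Ctrl (limma, adjusted p = 0.419) and 0.90 ± 0.22 in CKO (limma, adjusted p = 0.133). CKO lay below Ctrl in 5 of 6 same-numbered pairs, and the average genotype difference was -0.51 ± 0.16 (limma, adjusted p = 0.482, and 0.0753 with the block).

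Id2, an inhibitor of E proteins that supports effector and innate-like lymphocytes, had more signal on every Teff array than on any pTreg array, a difference that did not pass. Its log2 signal was 7.62, 7.81 and 7.64 in Ctrl pTreg and 7.67, 7.55 and 7.10 in CKO pTreg. It was 8.26, 8.06 and 8.68 in Ctrl Teff and 8.24, 8.87 and 8.32 in CKO Teff. The gap between the lowest Teff and the highest pTreg array was 0.25 in Ctrl and 0.57 in CKO. The pTreg minus Teff difference was -0.64 ± 0.22 in Ctrl (limma, adjusted p = 0.281) and -1.04 ± 0.22 in CKO (limma, adjusted p = 0.0752), so neither passed. The CKO difference passed without both Teff arrays numbered 3 (limma, adjusted p = 0.0335). The genotype differences were -0.25 ± 0.22 in pTreg (95% interval -0.73 to 0.23) and 0.14 ± 0.22 in Teff (95% interval -0.34 to 0.62). The dimmer Id2 probe, ILMN_2887239, had the same sign in both populations' comparison, -0.35 ± 0.22 in Ctrl and -0.67 ± 0.22 in CKO, with levels of 4.47 to 5.74.

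The mean of a list of NK and CD8 T cell genes was, like Id2, higher on the Teff arrays than on the pTreg arrays. The mean of 7 NK and CD8 T cell genes was 5.32 to 5.85 on the pTreg arrays, 6.02 to 6.18 on the Ctrl Teff arrays, and 7.24, 8.60 and 6.20 on CKO Teff arrays 1, 2 and 3, and Id2 was also highest on CKO Teff 2. Among the Teff arrays the list mean and Id2 did not run in parallel. Ctrl Teff 3 had Id2 at 8.68 and a list mean of 6.02, and CKO Teff 1 had 8.24 and 7.24. The high CKO Teff means came mostly from Klra7, Klra8, Klre1 and Klrd1, whereas Klrb1c stayed at 4.17 to 4.80 on every array. In Ctrl Teff, Klra7 and Klra8 averaged 4.98 and 4.51, below 5.43 and 4.68 in Ctrl pTreg. Klre1 and Klrd1 averaged 5.75 and 7.88 in Ctrl Teff, above 5.30 and 5.44 in Ctrl pTreg. Cd8b1, the only CD8 gene of the 7, ran the other way, with means of 9.69 and 9.44 in Ctrl and CKO pTreg, and 9.40 and 9.22 in Ctrl and CKO Teff. The correlation of that mean with Id2 was 0.72 over the 12 arrays, and its part in the Id2 levels was not tested.

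Id3, the related inhibitor, was dim, near the array median in Ctrl and a little above it in CKO. Its log2 signal was 4.77, 4.89 and 4.69 in Ctrl pTreg and 5.46, 5.74 and 4.85 in CKO pTreg. It was 4.69, 4.89 and 4.82 in Ctrl Teff and 5.03, 5.54 and 6.12 in CKO Teff. In 6 of 6 same-numbered pairs CKO exceeded Ctrl, and the genotypes did not overlap in Teff. The average genotype difference was 0.67 ± 0.19 and did not pass (limma, adjusted p = 0.401, and 0.0498 with the block). The CKO arrays spread more than the Ctrl arrays, with SDs of 0.45 and 0.55 against 0.10 and 0.10 in pTreg and Teff. Under a filter at the 75th percentile of each array Id3 is not tested at all.

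**Figure D2:**
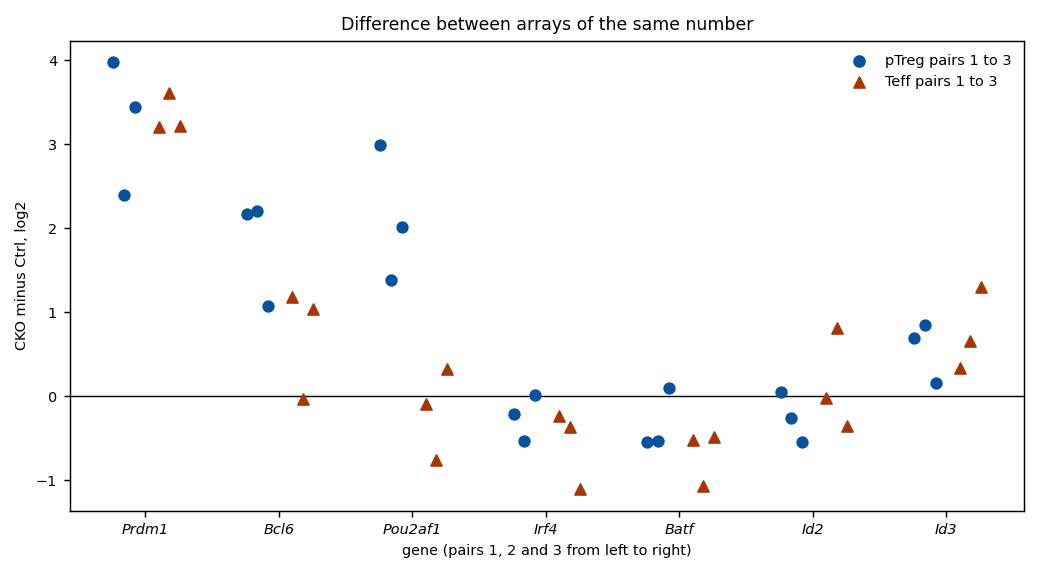
Difference in log2 signal between the CKO and the Ctrl array of the same number (vertical axis) for each gene (horizontal axis), with 3 pTreg pairs as circles and 3 Teff pairs as triangles. Prdm1 and Id3 are above 0 in 6 of 6 pairs, and Pou2af1 is between 1.38 and 2.99 in pTreg and between -0.75 and 0.32 in Teff.

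Read over all 7 genes, the genotype comparisons named few of them. The 7 were chosen with earlier results of these data known, and Prdm1 is the gene of the CKO label, so these counts are a description. In pTreg 2 of 7 passed, Prdm1 and Bcl6, both higher in CKO, beside 0.099% of all genes. In Teff 1 of 7 passed, Prdm1, beside 0.0165% of all genes, and averaged over both populations 2 of 7, Prdm1 and Bcl6, beside 0.116%. The genes that passed in CKO minus Ctrl included no member with lower signal. For the interaction 0 of 7 passed in limma, beside 0.0165% of all genes, and 2 of 7, Bcl6 and Pou2af1, had an unadjusted p under 0.05, beside 3.48% of all genes. With the replicate block 3 of 7 passed in pTreg (Prdm1, Bcl6 and Pou2af1) beside 2.18% of all genes, 1 of 7 in Teff (Prdm1) beside 0.099%, and 4 of 7 on average (with Id3 added) beside 2.27%. Of these 4, Pou2af1 and Id3 passed in 0 of 6 blocked fits without a pair (lowest limma adjusted p = 0.0512 and 0.0518), and Bcl6 in 3 of 6. For the interaction with the block 0 of 7 passed in limma beside 0.0413% of all genes, and 2 of 7 had an unadjusted p under 0.05 beside 11.4%.

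Between the sorted populations Bcl6 in Ctrl was the only difference of the 7 genes to pass. That is 1 of 7, lower in pTreg, beside 1.01% of all genes, and in CKO 0 of 7 passed in limma, beside 0.355%. At an unadjusted p under 0.05 there were 5 of 7 in Ctrl beside 10.4% of all genes, and 3 of 7 in CKO beside 10.8%. Groups did not overlap for 3 of 7 genes between genotypes in pTreg (Prdm1, Bcl6 and Pou2af1), beside 12.3% of all genes, and for 2 of 7 in Teff (Prdm1 and Id3), beside 6.77%. They did not overlap for 4 of 7 between pTreg and Teff in Ctrl (Batf higher, Bcl6, Pou2af1 and Id2 lower), beside 14.3%, and for 3 of 7 in CKO (Batf higher, Bcl6 and Id2 lower), beside 13.7%. The CKO array was higher in 6 of 6 pairs for 2 of 7 genes beside 3.01% of all genes, and lower in 6 of 6 for 0 of 7 beside 3.69%.

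**Figure D3:**
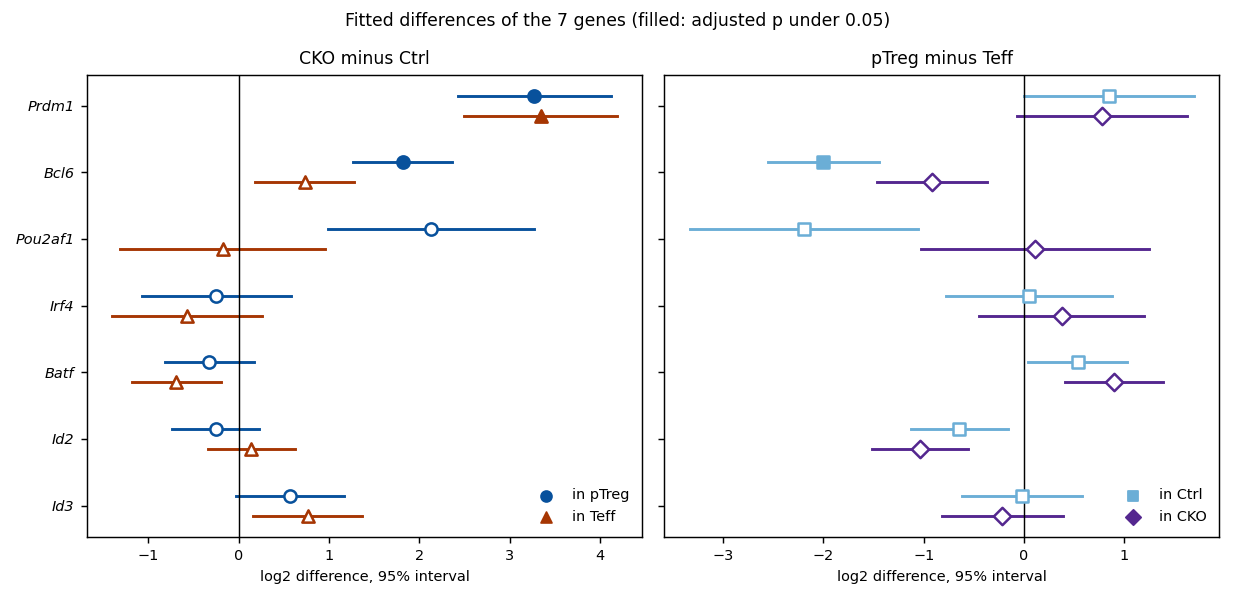
Fitted log2 differences (horizontal axis) of the 7 genes with 95% intervals, for CKO minus Ctrl in each population (left) and pTreg minus Teff in each genotype (right). Filled symbols passed at an adjusted p under 0.05 over all genes. Prdm1 passes in both populations and Bcl6 in pTreg on the left, and Bcl6 in Ctrl is the only filled symbol on the right.

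Of the 100 genes listed as partners, inputs and targets of the circuit, 77 were tested, and between the genotypes 0 passed in limma without the block, where 13 in pTreg and 7 in Teff had an unadjusted p under 0.05, beside 5.33% and 4.17% of all genes. Their median difference was -0.07 in pTreg and 0.07 in Teff, beside medians of 0.00 and -0.02 over all genes. With the block 11 of the 77 passed in pTreg, 5 higher and 6 lower in CKO, 1 in Teff and 9 on average, beside 2.18%, 0.099% and 2.27% of all genes. The lists were drawn up with earlier results of these data known, so these counts are a description.

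Among the IRF and AP-1 partners (14 of 16 tested, median -0.20 in pTreg) the gene that moved with the block was Batf3, a relative of Batf known from dendritic cells. Its log2 signal was 4.67, 6.31 and 4.87 in Ctrl pTreg and 7.73, 7.89 and 8.54 in CKO pTreg, against 5.01, 5.09 and 6.24 in Ctrl Teff and 6.26, 6.40 and 6.72 in CKO Teff. The genotypes did not overlap in either population. The difference was 2.77 ± 0.45 in pTreg (limma, adjusted p = 0.0660, and 0.00779 with the block) and 1.01 ± 0.45 in Teff. Batf3 was higher in CKO in 6 of 6 pairs, whereas Batf itself was lower in 5 of 6. Irf2 and Maf, the other named members of that list, differed by -0.18 and -0.11 on average.

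The inputs from cytokine receptors and STAT factors held 1 gene higher and 2 lower with the block in pTreg (14 of 16 tested, median -0.24). Stat4, which transmits interleukin-12 signals, was low in Ctrl pTreg as Bcl6 was, at 8.82, 8.85 and 9.21, against 10.58, 10.00 and 10.01 in CKO pTreg and 10.15 to 11.32 on the Teff arrays. Its genotype difference in pTreg was 1.23 ± 0.30 (limma, adjusted p = 0.290, and 0.0129 with the block). Within Ctrl it was lower in pTreg than in Teff, a difference of -1.86 ± 0.30 (limma, adjusted p = 0.0170). The genes lower with the block were Il10ra, an interleukin-10 receptor chain, by -2.16 ± 0.87, and Klf2, a trafficking factor, by -0.92 ± 0.65. Those errors are from the fit without the block, in which neither gene passed. With the block the limma adjusted p was 0.0168 for Il10ra and 0.0129 for Klf2. Il6st, the shared receptor chain of interleukin-6 family cytokines, differed by -0.87 ± 0.29 on average (limma, adjusted p = 0.604, and 0.0301 with the block). Il2ra, the interleukin-2 receptor chain CD25, differed by -0.47 on average and did not pass with or without the block.

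Of the follicular helper genes downstream of Bcl6 only 7 of 15 were tested, with a median of 0.02 in pTreg. Cxcr5, the chemokine receptor that guides cells to B cell follicles, was 6.11, 6.42 and 6.05 in Ctrl pTreg and 8.08, 7.31 and 7.33 in CKO pTreg, a difference of 1.39 ± 0.56 (limma, adjusted p = 0.849, and 0.0129 with the block). Tox, a nuclear factor of follicular helper and exhausted cells, differed by 1.02 ± 0.31 (limma, adjusted p = 0.485, and 0.0316 with the block). Both were higher in CKO in 6 of 6 pairs. Icos, a costimulatory receptor of the same programme, differed by -0.60 in pTreg and did not pass.

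Genes reported as repressed by Bcl6 did not move one way (10 of 13 tested, median -0.18 in pTreg). Ccr6, a chemokine receptor of interleukin-17 producing cells, was 9.08, 10.91 and 7.80 in Ctrl pTreg and 11.77, 12.28 and 11.14 in CKO pTreg, a difference of 2.47 ± 0.71 (limma, adjusted p = 0.450, and 0.0165 with the block). Selplg, the selectin ligand PSGL-1, differed by -1.25 ± 0.37 (limma, adjusted p = 0.477, and 0.0316 with the block). Bhlhe40 differed by 0.51 in pTreg and did not pass.

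Genes reported as repressed by Blimp1 were no more often higher than lower in CKO pTreg (9 of 10 tested, 4 positive and 5 negative, median -0.03). Those that passed with the block fell. Ctla4, an inhibitory receptor of regulatory T cells, was 13.05, 12.77 and 12.59 in Ctrl pTreg and 11.79, 11.89 and 11.34 in CKO pTreg. The Ctla4 difference was -1.13 ± 0.63 in pTreg and -1.71 ± 0.63 in Teff, and neither passed without the block (limma, adjusted p = 0.99998 and 0.99994). With the block the SE was 0.21 in both populations (limma, adjusted p = 0.0316 in pTreg and 0.0285 in Teff). Satb1, a chromatin organiser, differed by -0.79 ± 0.39 in pTreg (limma, adjusted p = 0.995), and with the block the SE was 0.14 (limma, adjusted p = 0.0263). Cd28, a costimulatory receptor, differed by -0.34 on average without passing. Il2, the growth factor gene that Blimp1 is known to silence, differed by only -0.28 ± 0.23 in pTreg and -0.10 ± 0.23 in Teff between genotypes. It separated the populations, with pTreg below Teff by -1.33 ± 0.23 in Ctrl (limma, adjusted p = 0.0239) and by -1.51 ± 0.23 in CKO (limma, adjusted p = 0.0272). On the Teff arrays Il2 lay at 14.26 to 14.89, and the highest value of any probe on any array was 14.98. Little room was thus left in Teff for a higher Il2 signal.

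Co-repressors and partners, of which 12 of 15 were tested, had a median of 0.01 in pTreg. Mta3, a subunit of the NuRD complex that works with Bcl6, was 8.61, 8.57 and 8.68 in Ctrl pTreg and 7.85, 7.56 and 7.58 in CKO pTreg, a difference of -0.96 ± 0.25 (limma, adjusted p = 0.331, and 0.0179 with the block). Zbtb32 and Tle4 differed by 0.47 ± 0.13 and 0.30 on average and did not pass. Among the E proteins and other Id factors (4 of 5 tested) 0 genotype differences passed in limma with or without the block, and 1 gene in pTreg (Tcf12) and another in Teff (Tcf4) had an unadjusted p under 0.05. Tcf4, an E protein, differed by 1.31 ± 0.28 between genotypes in Teff, without overlap (limma, adjusted p = 0.676, and 0.0971 with the block), and by -0.14 ± 0.28 in pTreg. It was lower in pTreg than in Teff within CKO by -1.69 ± 0.28 (limma, adjusted p = 0.0352), with 4.77, 4.96 and 5.22 in CKO pTreg and 6.85, 7.01 and 6.17 in CKO Teff, and Tcf12 and Tcf3 differed by 0.19 and 0.09 between genotypes on average. Of the octamer and plasma cell factors (8 of 11 tested) Pou2f2, which encodes the Oct2 that Pou2af1 binds, differed by -0.41 on average, the plasma cell factor Xbp1 by -0.22 and Sdc1 by 0.03, and 0 genes of that list passed between genotypes in limma with or without the block, with 0 in pTreg and 1 in Teff at an unadjusted p under 0.05.

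**Figure D4:**
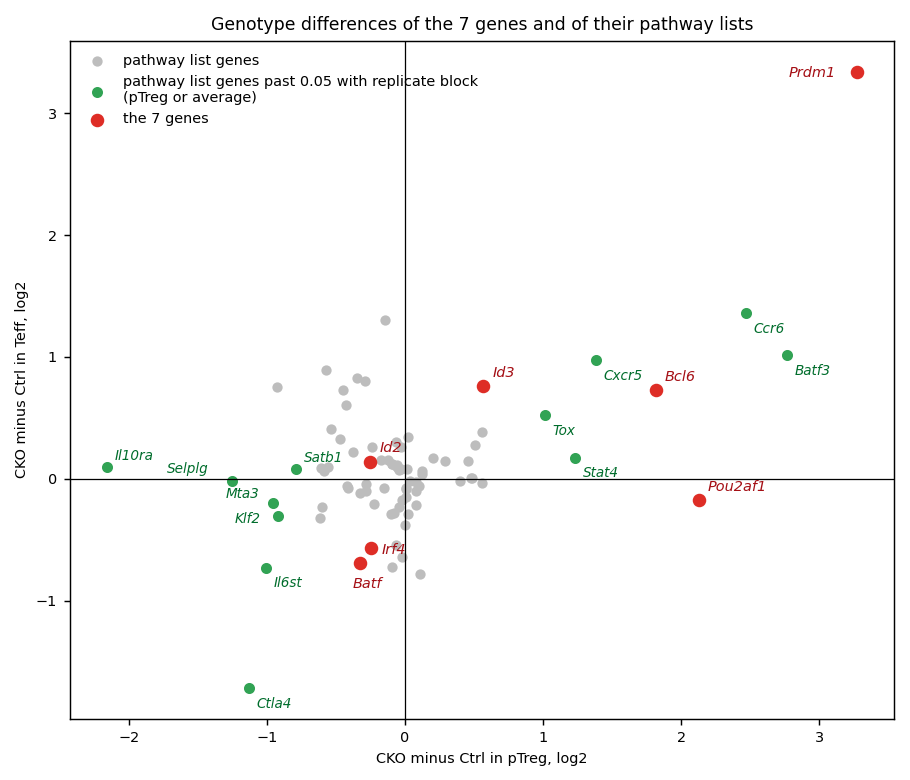
CKO minus Ctrl log2 difference in pTreg (horizontal axis) against that in Teff (vertical axis) for the 7 genes (red) and the tested pathway genes (grey, or green where the adjusted p with the replicate block was under 0.05 in pTreg or on average). Prdm1 lies far out on both axes, Pou2af1 at 2.13 in pTreg and -0.18 in Teff, and Batf3 and Ccr6 lie further right than Bcl6.

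Genes whose signal followed each member most closely are given as a description, over 12 arrays that share 4 groups. For Prdm1 the highest Pearson correlations were with Synpo (0.90), Tmem131l (0.89), Gkn3 (0.86), Rwdd3 (0.86) and Slc2a6 (0.85), and the lowest with Fcho1 (-0.91), Ly6g5b (-0.89), Il10 (-0.88), Khdc3 (-0.86) and Lat (-0.85). Of these, Gkn3, Rwdd3 and Khdc3 were dim, with group means of 4.43 to 4.99, near the array medians of 4.66 to 4.68. Il10, the cytokine of regulatory T cells that Blimp1 is known to support, averaged 12.22 in Ctrl pTreg and 6.98 in CKO pTreg, and 11.95 in Ctrl Teff and 9.49 in CKO Teff. Within groups, after the group means were removed, the correlation of Prdm1 with Il10 was 0.08 and with Synpo 0.29. It was also small for Ly6g5b (0.06), Lat (-0.15) and Gkn3 (0.16), so for these genes the pooled values rest mostly on the groups. Fcho1 (-0.63), Khdc3 (-0.60), Rwdd3 (0.58) and Tmem131l (0.49) kept a larger correlation within groups. For Slc2a6 the sign turned (-0.39).

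For Bcl6 the highest were Hectd2 (0.96), Ccdc50 (0.96), Gimap5 (0.95), Orc4 (0.93) and Slco4a1 (0.92), and the lowest Gpr83 (-0.955), Izumo1r (-0.95), Tnfrsf18 (-0.95), Cd99l2 (-0.94) and Tmem154 (-0.92). Gpr83, Izumo1r (folate receptor 4) and Tnfrsf18 (GITR) are surface markers of regulatory T cells. Their mean signals were 7.41, 6.35 and 11.84 in Ctrl pTreg, 5.19, 4.87 and 10.62 in CKO pTreg, and lower still in both Teff groups. Within groups the correlation of Bcl6 with Gpr83 was -0.57 and with Hectd2 0.58. The mean of 8 regulatory T cell markers, Foxp3 among them, was 8.93 to 9.48 on the Ctrl pTreg arrays, 8.24 to 8.39 on the CKO pTreg arrays and 6.62 to 7.23 on the Teff arrays, and its correlation with Bcl6 was -0.90. The 8 also include Gpr83, Izumo1r and Tnfrsf18, which were named here for their correlations with Bcl6. The value of -0.90 partly repeats that choice. Nrp1, another of the 8, had a higher mean in CKO pTreg (8.48) than in Ctrl pTreg (8.23). Foxp3 itself differed little between Ctrl and CKO pTreg, as given above, and the part of the marker difference in the Bcl6 level was not tested.

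For the other members the 3 closest genes were Htr1b, Ece1 and Mthfd2 for Pou2af1 (0.91 to 0.89), Polm, Asxl1 and Ndfip1 for Irf4 (0.90 to 0.88), Tnik, Sin3a and Plagl2 for Batf (0.90 to 0.88), Gpr171, Camk2n2 and Gzmm for Id2 (0.92 to 0.89), and Itga3, Sesn3 and Cep170 for Id3 (0.83 to 0.80). Htr1b was dim, with group means of 4.46 to 4.63. Among the members themselves the closest pair was Bcl6 and Pou2af1 (0.77 over 12 arrays, 0.12 within groups), and the most opposed were Bcl6 and Batf (-0.76, and -0.07 within groups) and Batf and Id2 (-0.76, and -0.67 within groups). Prdm1 and Bcl6 had a correlation of 0.40 over the arrays and -0.18 within groups. Of these, Batf and Id2 alone kept a correlation of like size within the groups.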

How the data were processed

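Each of 12 samples of sorted mouse T cells has 1 Illumina array. The deposited values give a log2 intensity for each probe, a scale read from their range. Per the submitters' processing notes the authors used GenomeStudio and limma 3.30.11, and the sources used here name no background correction or normalization. The same value recurs on different arrays, as it would after quantile normalization (Il2 was 14.8949086 on both Ctrl Teff 1 and 2). Of 31641 probes, those with 1 gene symbol (28197) were used, 5 with several and 3439 with none were set aside, and symbols were updated through Entrez identifiers. A probe was kept when above its array's median on at least 3 arrays, and each gene took its brightest kept probe, which gave 12119 genes.

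Group means were fitted to all 12 arrays with limma 3.58.1 (lmFit and eBayes) in R 4.3.3 with statmod 1.5.0 and data.table (version 1.17.8), two-sided, with 10.5 total degrees of freedom. Benjamini-Hochberg adjustment ran over 12119 genes, and an adjusted p under 0.05 passed. Errors are SE for differences, from the fit without the block unless stated, and SD for group means, and intervals are 95%. Nothing in the labels ties replicates to separate animals. The p-values therefore measure only the spread between samples, which may be technical. The 3 arrays per group limit the precision.

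Residuals of same-numbered arrays correlated at 0.519 to 0.589 between genotypes in pTreg and at 0.348 to 0.737 in Teff. The best match of every Ctrl array among the CKO arrays of its population was its own number (3 of 3 in each). The best match of each CKO array among the Ctrl arrays was not looked up. The numbers were taken to pair the genotypes. This rests on the data, since the labels do not state a pairing. Between pTreg and Teff Ctrl gave correlations from -0.266 to 0.265 and CKO from 0.0413 to 0.325, and these groups were not paired. The block is the replicate number within cell type, as a fixed term.

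Named genes are the 7 members, every listed gene past the threshold, the 3 of each list with the smallest unadjusted p in the averaged genotype difference, and the genes with the highest correlations with a member (for Prdm1 and Bcl6 also the lowest). Clone names were left out of the correlations. Il10ra and Klf2 were named after their values were seen, to complete a count, as were marker genes. The members and lists were chosen with earlier results of these data known. The fit without the block was tested on simulated data with independent noise on every array. That simulation held no pairing and does not cover the fit with the block. Alternatives were the normalization, the filter, the choice of probe, eBayes settings, array weights, blocks, only the groups compared, and arrays or pairs left out.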

Additional observations from a re-analysis of the deposited data

How the results depend on the processing

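The direction of every Prdm1, Bcl6 and Batf difference and of the Pou2af1 differences in pTreg held in all alternatives run, except the near-zero Prdm1 interaction, and the cause of the changes below was not tested. With the replicate block within cell type, 4 members passed in the averaged genotype difference in place of 2. Between pTreg and Teff in Ctrl the count was 2, Bcl6 and Pou2af1, with the 75th percentile filter, with array weights or with a replicate block within genotype, in place of 1, and in CKO it was 1 with array weights, in place of 0. The replicate block within genotype pairs arrays that share only a number. In Teff 0 members passed when only the groups compared were fitted (Prdm1, limma adjusted p = 0.796), whereas in pTreg the same fit kept 2. Over the fits that leave out an array or a pair, the counts of members past the threshold ranged from 0 to 3 in pTreg, 0 to 1 in Teff, 1 to 2 on average, 0 to 2 between pTreg and Teff in Ctrl, 0 to 1 in CKO, and 0 to 1 for the interaction, where Pou2af1 passed with the block and without the Teff arrays numbered 3. Without the pTreg pair numbered 1 or 2, Bcl6 in pTreg did not pass even with the block (limma, adjusted p = 0.116 and 0.104). No difference passed under an alternative that turned its sign (lowest limma adjusted p = 0.652). Id3 between pTreg and Teff in Ctrl was 0.0021 with quantile normalization and 0.029 with array weights. With array weights, Irf4 was -0.065 in Ctrl, and Pou2af1 and Id3 were -0.089 and 0.028 in CKO. With arrays left out the ranges were -0.53 to 0.46 for Pou2af1 between genotypes in Teff, -0.19 to 0.39 for Id2 in Teff and -0.22 to 0.071 on average. Between pTreg and Teff they were -0.16 to 0.27 (Irf4) and -0.073 to 0.028 (Id3) in Ctrl, and -0.53 to 0.46 (Pou2af1), -0.10 to 0.68 (Irf4) and -0.48 to 0.063 (Id3) in CKO. For the interaction they were -0.42 to 0.37 (Prdm1), -0.16 to 0.63 (Irf4) and -0.46 to 0.082 (Id3). Quantile normalization, median centring, no filter, the mean of a gene's probes and the trend and robust settings changed no count of members. The deposited array medians already ran from 4.66 to 4.68, and some values recur across arrays. Quantile normalization and median centring could therefore change little, and do not test the choice of normalization. The dim signal of Id3 and of the second Prdm1 probe, near the array medians, limits what they can show.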
